A study of Mus musculus with 4 samples.

Results

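The genes described are 48 members of the bone morphogenetic protein (BMP), TGF-β and Nodal pathways, taken by gene symbol from a list of ligands, receptors, Smads, inhibitors and Id genes, with no measured value in the rule. Each was represented by 1 probe set, so that the members were 48 of the 19938 genes measured. Mouse embryonic stem (ES) cells of the D3 line were profiled undifferentiated at day 0, and after 7 days as embryoid bodies (EBs), which were formed in hanging drops (2 days) and kept in suspension (5 days). EBs are clumps of differentiating ES cells that give rise to cells of all germ layers. They were left untreated, treated with retinoic acid (RA), the natural ligand of the retinoic acid receptors, or treated with bexarotene, a synthetic ligand of the retinoid X receptors. All 4 conditions come from this 1 line, and the labels name no genetic change and no other agent. The dose of bexarotene was 50 nM. That of RA was 5 µM in the sample labels, whereas the article gives a lower, nanomolar dose, so the doses of the ligands differed by either account.

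Total RNA of each condition was hybridised to 1 Affymetrix array, and the values are log2 signal per probe set as the authors normalized it. Each array held 35556 probe sets, with medians between 6.66 and 6.69 and lower quartiles between 5.19 and 5.22. There is 1 array per condition without a replicate. No p-value can therefore be given, and every difference is one between 2 arrays. Higher and lower are used of genes past 1.5-fold, a log2 difference of 0.585, which is the fold the study uses. As a measure of spread, the robust SD of the difference between 2 arrays was taken over probe sets of similar signal. It ranged from 0.0717 to 0.138 between the bexarotene and RA arrays, from 0.0826 to 0.232 between the RA and untreated arrays and from 0.136 to 0.567 between the untreated and ES cell arrays. It contains real differences between conditions and leaves out the spread between cultures. The labels of the ES cell and untreated EB arrays were checked with markers. Of the pluripotency genes, 8 of 8 had more than 1.5-fold less signal in untreated EBs, with their mean log2 signal at 11.1 in ES cells and 8.51 in untreated EBs. This check does not bear on which EB array had which treatment.

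Ligands of this family are secreted dimers that bind a pair of type I and type II serine-threonine kinase receptors. BMP receptors phosphorylate Smad1, Smad5 and Smad9, whereas TGF-β, Nodal and activin receptors phosphorylate Smad2 and Smad3, and both groups enter the nucleus with Smad4. Antagonists such as noggin, chordin and follistatin hold ligands outside the cell, Lefty proteins block Nodal, and Smad6 and Smad7 inhibit the receptors from within. In the early embryo Nodal signalling induces mesoderm and endoderm, BMPs pattern ventral and posterior tissue, and in mouse ES cells BMP4 acts through the Id genes to hold back neural differentiation.

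The promoters of the members that differed most in each direction between EB arrays are shown, because these genes lie at opposite ends of the differences from untreated EBs. They are Tgfb2, which was lowest with RA relative to untreated EBs, and Id4, which was highest. Each line gives the 250 bases before the annotated start, 5′ to 3′ on the strand of the gene, from RefSeq on build GRCm38.p6. The Tgfb2 promoter lies at chr1:186705990-186706239 on the minus strand and that of Id4 at chr13:48260866-48261115 on the plus strand. Capitals mark matches to the searched motifs.
Tgfb2: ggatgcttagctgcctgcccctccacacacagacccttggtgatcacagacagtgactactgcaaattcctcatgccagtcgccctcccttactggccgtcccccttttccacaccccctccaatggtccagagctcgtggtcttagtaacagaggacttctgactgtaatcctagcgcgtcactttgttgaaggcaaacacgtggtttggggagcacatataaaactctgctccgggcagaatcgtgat
Id4: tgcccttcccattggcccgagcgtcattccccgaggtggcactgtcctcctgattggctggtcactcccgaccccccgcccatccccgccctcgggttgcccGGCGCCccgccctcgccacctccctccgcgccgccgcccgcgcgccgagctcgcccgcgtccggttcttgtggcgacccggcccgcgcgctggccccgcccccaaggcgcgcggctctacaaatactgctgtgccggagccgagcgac

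Both strands were searched for the nuclear receptor half-site AGGTCA, for direct repeats of it with 1, 2 or 5 bases between, for the Smad boxes GTCTAGAC and GGCGCC, and for the FoxH1 motifs AATCCACA and AATACACA. The half-site also lies within its repeats, and both Smad boxes read the same on either strand. In the Id4 promoter the single match was GGCGCC, 148 to 143 bases before the start, and the Tgfb2 promoter held no match. Bmp5 and Tgfb1 were also past 2-fold between EB arrays, and neither of their promoters held a match. The Bmp2 promoter was not analysed here. Of 38 promoters of the 32 members in the table, 9 held GGCGCC, against 9.59% of all 32851 promoters, and 2 held the half-site (Bmpr1b and Grem1), against 14.0%. The direct repeats were found in at most 0.0335% of all promoters, GTCTAGAC in 0.167%, AATCCACA in 0.718% and AATACACA in 0.895%, and none of these was found in a member's promoter. The base composition was not matched, and the promoter of Id4 is 75.6% G and C and that of Tgfb2 53.6%, beside a median of 52.4%. A match of letters is a description of the sequence and not a site of binding.

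Untreated EBs were compared with ES cells to follow the pathway during differentiation without ligand. Of the 48 members, 29 were past 1.5-fold, 23 of them higher and 6 lower in untreated EBs. Over all genes 19.8% were past the threshold, 11.2% higher and 8.62% lower. The spread between these 2 arrays reached 0.567, close to the threshold of 0.585, so a difference past 1.5-fold in this comparison can be little larger than the spread. The median log2 difference was 0.54 over the members and -0.04 over all genes. In such bulk samples, fewer cells of a type and less RNA per cell cannot be told apart. Most members are well measured on the array, with 31 at or above the array median on all 4 arrays and 0 at or below the lower quartile on all 4. Among genes at or above the median on at least 1 of the compared arrays, 28 of 41 members and 29.0% of all such genes were past 1.5-fold. Each ligand was then compared with untreated EBs. With RA 14 members were past 1.5-fold, 4 higher and 10 lower (all genes 4.39%, of which 2.11% higher and 2.29% lower). With bexarotene 14 were past it, 5 higher and 9 lower (all genes 3.72%, of which 1.52% higher and 2.19% lower). The medians over the members were -0.10 with RA and -0.04 with bexarotene, beside 0 and -0.01 over all genes. Among genes at or above the median, 12 of 39 members and 6.11% of all such genes were past it with RA, and 12 of 39 members and 5.20% of all such genes with bexarotene. Between bexarotene and RA 2 members were past 1.5-fold, both higher with bexarotene (all genes 0.507%). The members were chosen with earlier results of these arrays known, so these shares describe the list and are not independent of it. Over the 4 comparisons 33 members were past 1.5-fold at least once and 15 in none, and 17 were past it at least once between EB arrays. The matching pooled shares over all genes were not counted, so these pooled counts do not set the members apart from other genes. The comparisons with untreated EBs share the 1 untreated array, which also enters the comparison with ES cells.

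**Figure D1:**
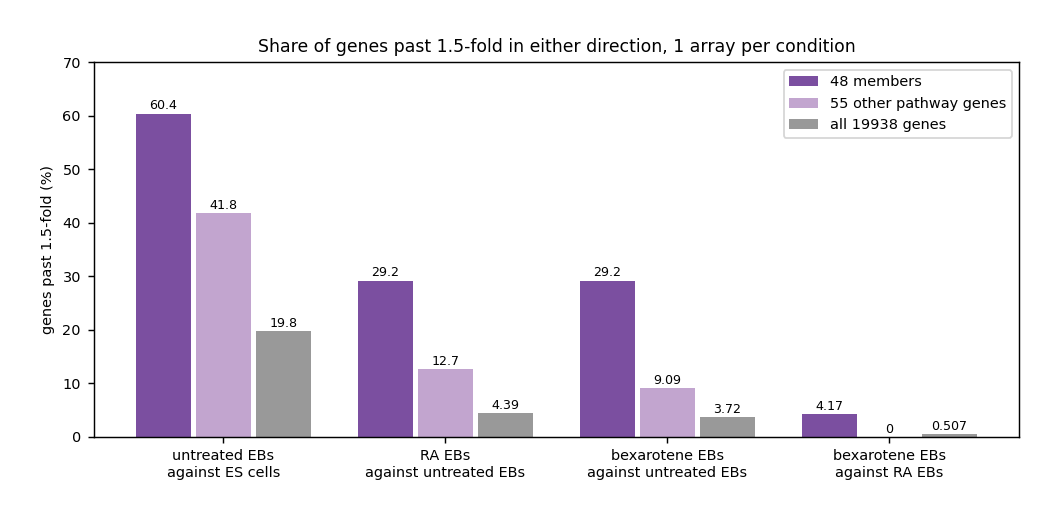
Percentage of genes past 1.5-fold in either direction (y axis) in 4 comparisons between arrays (x axis), for the 48 members, 55 other genes of the pathways and all 19938 genes, with 1 array per condition and no error bars. The members stand at 60.4%, 29.2%, 29.2% and 4.17%, above the bars of all genes at 19.8%, 4.39%, 3.72% and 0.507%.

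Among the BMP ligands, Bmp2, Bmp5 and Bmp7 were higher in untreated EBs than in ES cells and lower with either ligand than in untreated EBs, whereas Bmp4 was highest in ES cells and differed between the ligands. Bmp2, which acts in heart and mesoderm development, had a log2 signal of 5.33 in ES cells, close to the lower quartile of that array. Among EBs it stood at 9.08 untreated, 7.69 with RA and 8.22 with bexarotene. It was 13.5-fold higher in untreated EBs than in ES cells, 2.63-fold lower with RA and 1.81-fold lower with bexarotene than in untreated EBs. Both ligand arrays thus lay between the ES cell and the untreated array.

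Bmp5, a ligand of skeletal and mesenchymal development, had a log2 signal of 5.26 in ES cells, close to the lower quartile of that array, and 8.58 in untreated EBs. It stood at 6.79 with RA and 7.38 with bexarotene, which is 3.44-fold and 2.30-fold lower than in untreated EBs. Bmp7, which is needed for kidney and eye development, had log2 signals of 8.81 in ES cells and, among EBs, 10.73 untreated, 9.75 with RA and 9.82 with bexarotene. Its level with the ligands was nearly equal, at 1.97-fold and 1.89-fold lower than untreated. Bmp6, a BMP of bone and iron regulation, was within 1.5-fold in all 4 comparisons, with log2 signals between 8.17 and 8.55.

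Bmp4 (probe set 10419261), which maintains ES cells with leukaemia inhibitory factor and induces ventral mesoderm, was 2.53-fold lower in untreated EBs relative to ES cells. Its log2 signal was 11.31 in ES cells and, among EBs, 9.97 untreated, 9.63 with RA and 10.55 with bexarotene. Relative to untreated EBs the log2 difference was -0.34 with RA and 0.578 with bexarotene, both within the threshold, the latter by a small margin. After quantile normalization or loess of the deposited values, the latter was 0.603 or 0.607 and so past 1.5-fold. Between the ligands Bmp4 was 1.89-fold higher with bexarotene, a log2 difference of 0.91 where the spread at this signal was 0.0989. It was the largest difference of any member between these arrays. The other BMP ligands were within 1.5-fold between bexarotene and RA, with Bmp5 at a log2 difference of 0.583, just inside the threshold, Bmp2 at 0.54 and Bmp6 at -0.28. Bmp7, at 0.07, differed by less than the spread of 0.0989 at its signal.

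**Figure D2:**
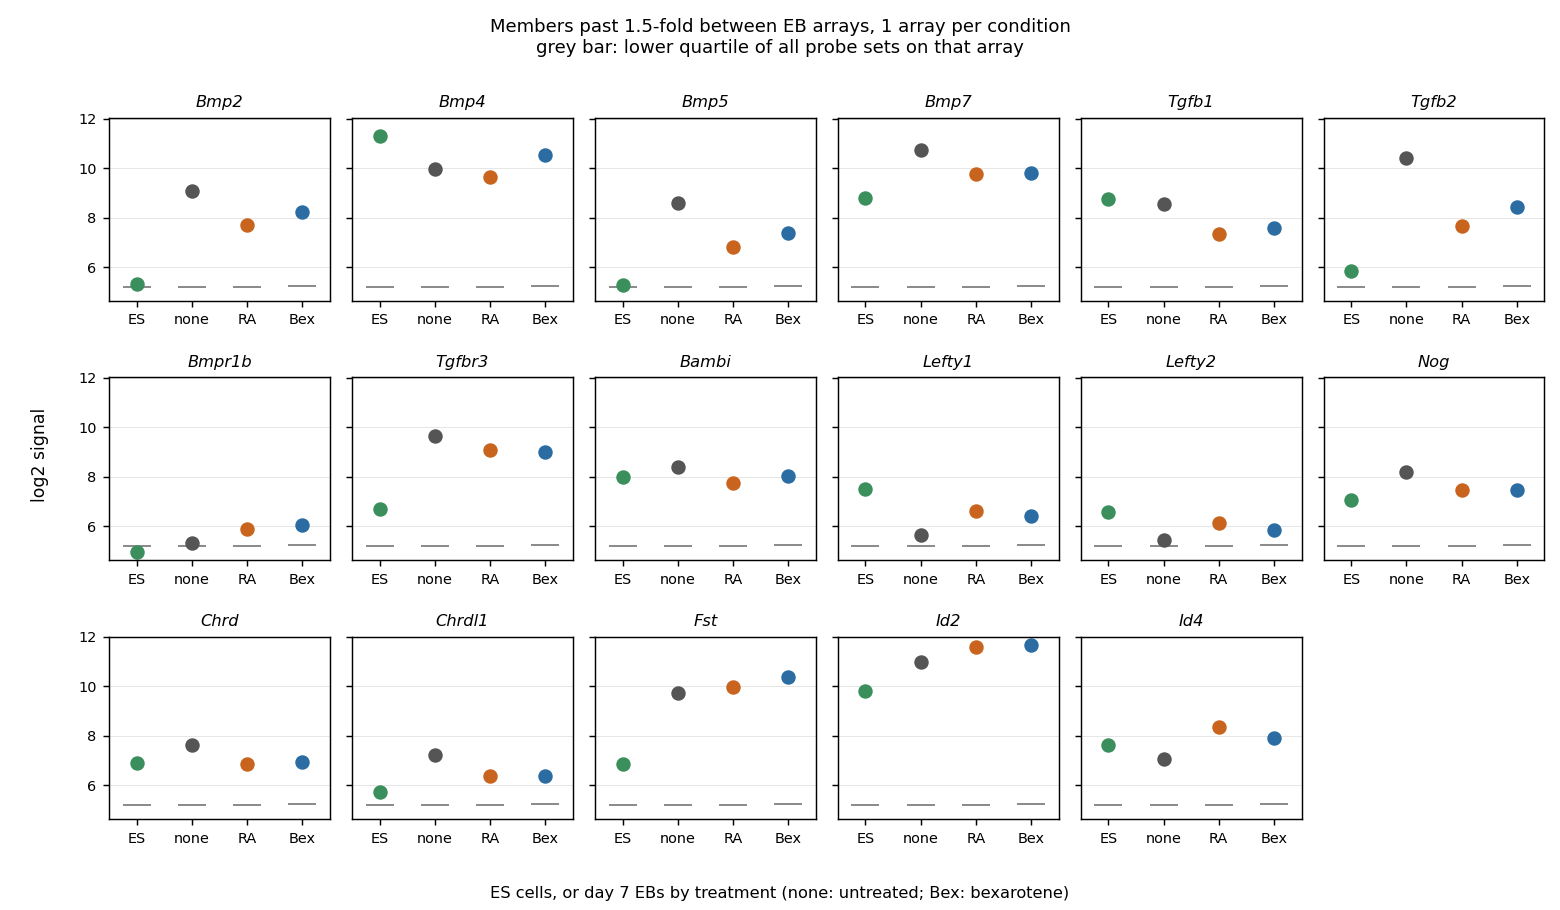
Log2 signal (y axis) of the 17 members past 1.5-fold in at least 1 comparison between EB arrays, by condition (x axis, from left ES cells, then EBs without ligand, with RA and with bexarotene), with 1 point per array and a grey bar at the lower quartile of all probe sets. Tgfb2 stands at 10.40 in untreated EBs and at 7.68 and 8.41 with RA and bexarotene, while Bmp4 stands at 9.63 with RA and 10.55 with bexarotene.

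The other ligands were led by Tgfb2 (probe set 10360920), a TGF-β of heart, eye and craniofacial development. Its log2 signal was 5.83 in ES cells and, among EBs, 10.40 untreated, 7.68 with RA and 8.41 with bexarotene. Tgfb2 was 23.8-fold higher in untreated EBs than in ES cells, the largest difference of any member in any of the 4 comparisons. It was 6.59-fold lower with RA and 3.97-fold lower with bexarotene than in untreated EBs, and the bexarotene array was 1.66-fold above the RA array. Together with Bmp4 it was past 1.5-fold between the ligands. In each ligand array it was still above ES cells, by 3.61-fold with RA and 5.99-fold with bexarotene.

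Tgfb1, the broadly expressed TGF-β of blood, vessel and immune regulation, did not follow this course. Its log2 signal was 8.74 in ES cells and 8.53 in untreated EBs, and 7.35 with RA and 7.59 with bexarotene. It was 2.27-fold and 1.92-fold lower than in untreated EBs, and both ligand arrays were also below the ES cell array, with log2 differences of -1.39 and -1.15. Tgfb3, a TGF-β of palate and lung development, had log2 signals of 5.67, 7.69, 7.20 and 7.28 on the ES cell, untreated, RA and bexarotene arrays. It was 4.05-fold higher in untreated EBs than in ES cells, and its log2 differences from untreated EBs were -0.49 with RA and -0.41 with bexarotene.

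Nodal, the ligand of mesendoderm induction and left-right asymmetry, was highest in ES cells at a log2 signal of 8.62. It stood at 6.62 without ligand, 6.96 with RA and 6.62 with bexarotene, so that all 3 EB arrays were more than 3-fold below ES cells. The 6 members that were lower after differentiation without ligand were Nodal, Inhbb, Bmp4, Smad7, Lefty1 and Lefty2. The pluripotency genes given above were lower too, and the part of remaining undifferentiated cells in these levels was not tested. Inhbb, which encodes the βB subunit of activin and inhibin, was likewise 3.14-fold below the ES cell array in untreated EBs (7.91 against 6.26), and its EB arrays lay between 6.26 and 6.32. Gdf11, a ligand that patterns the posterior axis, was 2.45-fold higher in untreated EBs than in ES cells (8.02 against 6.73). It stood at 8.50 with RA and 8.32 with bexarotene, within 1.5-fold of untreated EBs. Inhba, Gdf6 and Gdf10, which encode the βA subunit of activin, a BMP of joints and eye, and a BMP-related ligand, were below the array median on all 4 arrays. They were within 1.5-fold in all 4 comparisons.

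Of 8 extracellular antagonists, 5 were higher and 2 lower in untreated EBs relative to ES cells, and with each ligand 2 were higher and 3 lower than in untreated EBs. Over all genes 19.8% were past 1.5-fold between untreated EBs and ES cells, 4.39% with RA and 3.72% with bexarotene. The BMP antagonists Nog, Chrd and Chrdl1 were higher in untreated EBs than in ES cells and lower with each ligand. Nog encodes noggin, which sequesters BMPs in organizer, notochord and dorsal neural tissue, and its log2 signal was 7.06 in ES cells and, among EBs, 8.21 untreated, 7.47 with RA and 7.47 with bexarotene. Chrd, the gene of chordin, had signals of 6.89, 7.63, 6.88 and 6.96 in the same order, so that both ligand arrays were at the level of ES cells. Chrdl1, which encodes a chordin-like BMP antagonist, had signals of 5.72, 7.24, 6.38 and 6.38. Relative to untreated EBs, the log2 differences with RA and bexarotene were -0.74 and -0.73 for Nog, -0.75 and -0.67 for Chrd, and -0.86 and -0.85 for Chrdl1. Between the ligands these genes differed by at most 0.08.

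Fst, the gene of follistatin, which binds activin and also BMPs, was highest with bexarotene. Its log2 signal was 6.85 in ES cells and, among EBs, 9.75 untreated, 9.96 with RA and 10.37 with bexarotene. It was 7.46-fold higher in untreated EBs than in ES cells and, with bexarotene, 1.53-fold above untreated EBs, with a log2 difference of 0.21 for RA, and the difference between the ligands was 0.41. Fstl1, a follistatin-related secreted protein, was 1.64-fold higher in untreated EBs than in ES cells and within 1.5-fold of them with each ligand. Grem1, which encodes the BMP antagonist gremlin of limb and kidney, had a log2 difference of 0.53 between untreated EBs and ES cells and of -0.20 and -0.17 with RA and bexarotene.

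Lefty1 and Lefty2, Nodal antagonists that are themselves targets of Nodal signalling, were lowest in untreated EBs. The log2 signal of Lefty1 was 7.51 in ES cells and, among EBs, 5.63 untreated, 6.60 with RA and 6.42 with bexarotene. That of Lefty2 was 6.58, 5.44, 6.13 and 5.85. Relative to untreated EBs, Lefty1 was 1.96-fold above with RA and 1.73-fold above with bexarotene, and Lefty2 was 1.61-fold and 1.32-fold above. All EB arrays lay below the array median for both genes. They are close paralogs, and whether their probe sets share signal was not tested. Pluripotency genes, which like the Lefty genes were highest in ES cells, also had more signal with each ligand than without. Of these, 6 of 8 were past 1.5-fold higher with RA and 0 of 8 with bexarotene, beside 2.11% and 1.52% of all genes. All 8 of 8 pluripotency genes were above untreated EBs with each ligand, with median log2 differences of 0.65 and 0.36. These differences ranged from 0.22 to 0.79 with RA and from 0.04 to 0.56 with bexarotene. Their mean signal was 8.51 without ligand, 9.09 with RA and 8.82 with bexarotene, and their part in the level of the Lefty genes was not tested.

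**Figure D3:**
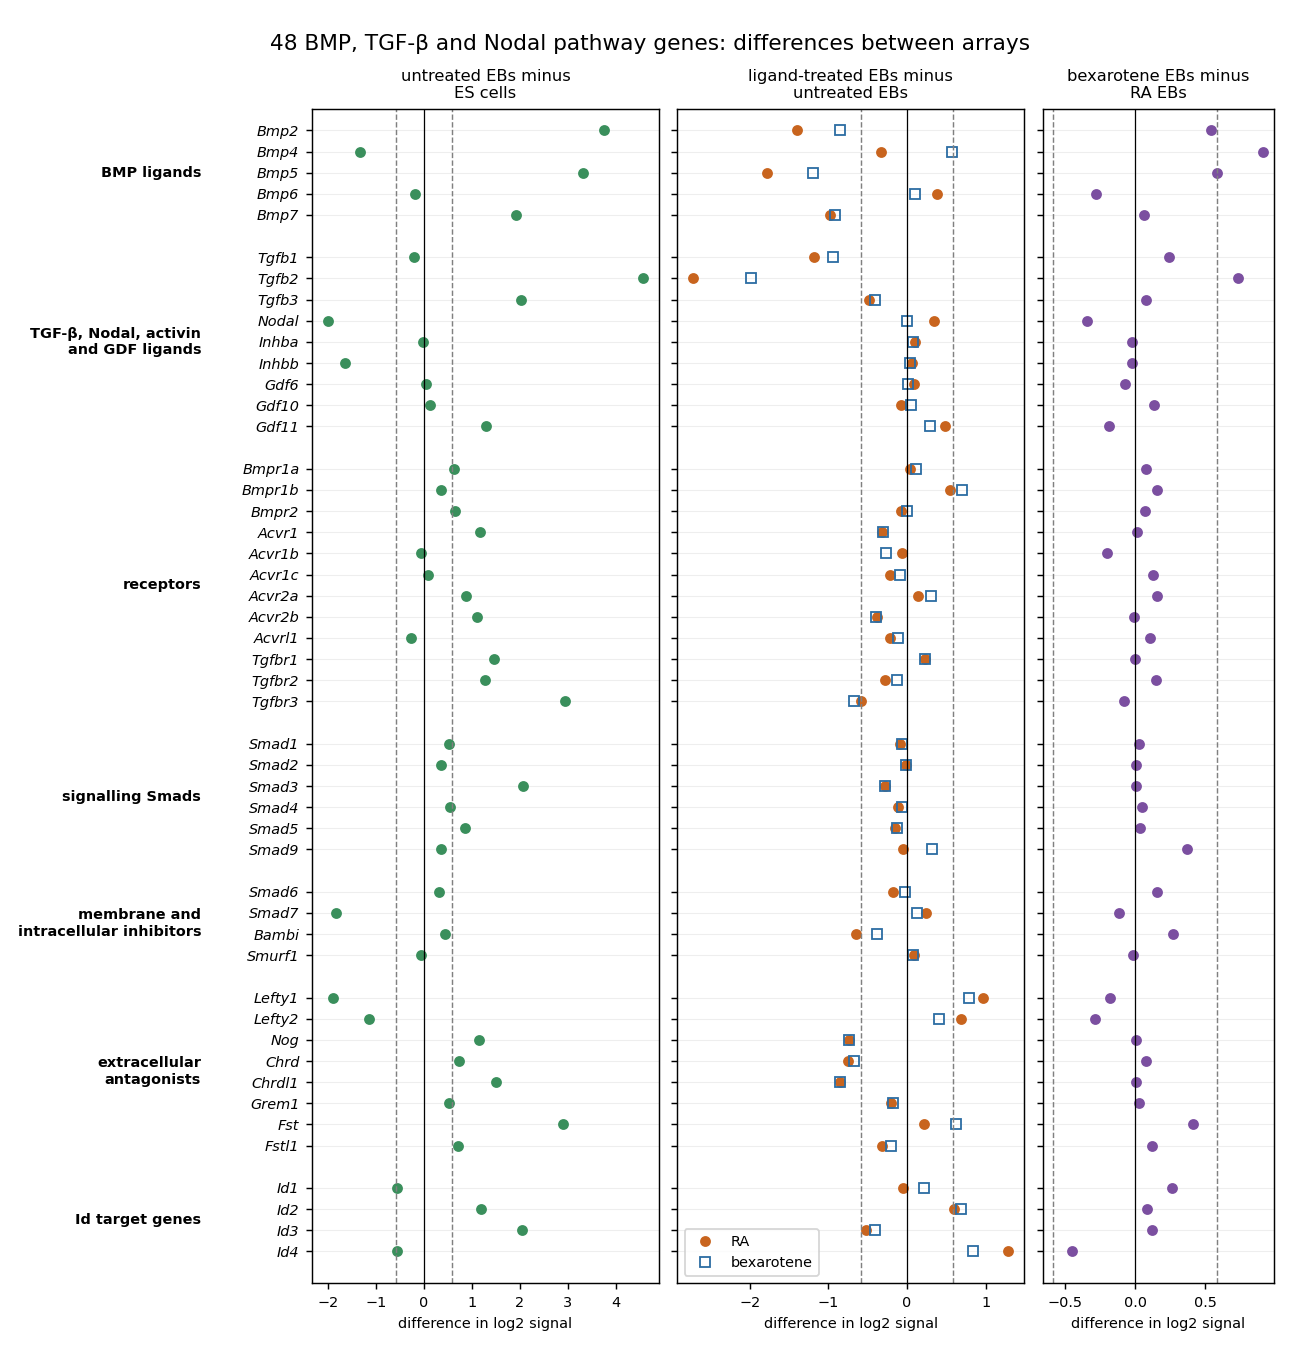
Difference in log2 signal (x axes) for each of the 48 members, listed on the y axis by role, between untreated EBs and ES cells (left), between ligand-treated and untreated EBs (middle, filled circles RA, open squares bexarotene) and between bexarotene and RA (right), with dashed lines at 1.5-fold and 1 array per condition. Receptors and Smads lie mostly to the right of 0 in the left panel and near 0 in the other 2, while Tgfb2, Bmp5 and Bmp2 lie far to the right in the left panel and to the left in the middle one.

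The receptors were mostly higher in untreated EBs than in ES cells, and most were within 1.5-fold between EB arrays, as were most genes. Of 12 receptors, 8 were past 1.5-fold higher in untreated EBs and 0 lower, beside 11.2% and 8.62% of all genes. The median log2 difference of the receptors was 0.76. The highest was Tgfbr3, which encodes betaglycan, a coreceptor that presents TGF-β2, at 7.71-fold (log2 signal 6.70 in ES cells and 9.65 in untreated EBs). The type I and type II TGF-β receptors Tgfbr1 and Tgfbr2 were 2.77-fold and 2.42-fold higher, and the activin type II receptors Acvr2b and Acvr2a 2.16-fold and 1.84-fold. Acvr1, a type I receptor of BMPs, was 2.27-fold higher, and the BMP receptors Bmpr2 and Bmpr1a were 1.57-fold and 1.56-fold higher. Acvr1b, the activin and Nodal type I receptor, and Acvrl1, the endothelial type I receptor, had log2 differences of -0.06 and -0.26. Acvr1c, a further type I receptor of Nodal, was at or below the lower quartile on 3 of 4 arrays, with signals between 4.99 and 5.20.

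With RA 1 of 12 receptors was past 1.5-fold and with bexarotene 2 of 12. These are 8.33% and 16.7%, beside 4.39% and 3.72% of all genes. Tgfbr3 had signals of 9.06 with RA and 8.98 with bexarotene, log2 differences of -0.588 and -0.67 from untreated EBs, the former at the edge of the threshold. Under quantile normalization it was -0.566 and under loess -0.541, so not past 1.5-fold with RA. Bmpr1b, a type I BMP receptor of cartilage, limb and dorsal neural tube, had log2 signals of 4.97 in ES cells and, among EBs, 5.33 untreated, 5.88 with RA and 6.04 with bexarotene. It was 1.63-fold higher with bexarotene than in untreated EBs, with a log2 difference of 0.55 for RA, just under the threshold, and it lay below the array median on all 4 arrays. The other 10 receptors had log2 differences from untreated EBs between -0.39 and 0.30 with either ligand. Between bexarotene and RA 0 of 12 receptors were past 1.5-fold, beside 0.507% of all genes.

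The Smads that carry the signal were within 1.5-fold between EB arrays, as were most genes. All 6 had more signal in untreated EBs than in ES cells, and 2 were past 1.5-fold: Smad3, an activin and TGF-β Smad, at 4.20-fold (8.26 against 10.33) and Smad5, a BMP Smad, at 1.81-fold (8.31 against 9.17). Smad1, Smad2, Smad4 and Smad9 had log2 differences between 0.35 and 0.55. With RA and bexarotene 0 of 6 were past 1.5-fold, beside 4.39% and 3.72% of all genes. So few genes cannot set the Smads apart from that share. Smad2, a TGF-β and Nodal Smad, and the common partner Smad4 had log2 differences from untreated EBs between -0.12 and -0.01, and Smad3 stood at 10.05 and 10.06. Smad9 (also Smad8), a BMP Smad, had the largest difference of the group between the ligands, with signals of 6.57 with RA and 6.94 with bexarotene, a log2 difference of 0.37.

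Of the inhibitors that act at the membrane or inside the cell, Smad7, which is induced by TGF-β and blocks its receptor, was 3.56-fold lower in untreated EBs than on the ES cell array. Its log2 signal was 9.67 in ES cells and 7.84, 8.08 and 7.96 on the untreated, RA and bexarotene arrays. Bambi, a pseudoreceptor that dampens BMP and TGF-β signals, had signals of 7.98, 8.41, 7.76 and 8.03. It was 1.57-fold lower with RA than in untreated EBs and had a log2 difference of -0.38 with bexarotene. Smad6, an inhibitor of BMP receptors, and Smurf1, a ubiquitin ligase for BMP Smads, were within 1.5-fold in all 4 comparisons, the latter with signals between 9.25 and 9.35.

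The Id genes, which encode inhibitors of bHLH transcription factors and are direct targets of BMP Smads, differed among themselves. Id1 was at 9.35 in ES cells and, among EBs, 8.80 untreated, 8.75 with RA and 9.01 with bexarotene, within 1.5-fold in all 4 comparisons. Id3 was at 7.20, 9.24, 8.72 and 8.83 in the same order, 4.12-fold higher in untreated EBs than in ES cells. Relative to untreated EBs it had log2 differences of -0.52 and -0.41 with RA and bexarotene. Id2 was at 9.81, 11.00, 11.60 and 11.68. It was 2.28-fold higher in untreated EBs than in ES cells, and with each ligand it was higher again, by 1.52-fold and 1.61-fold.

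Id4, which is also expressed in neural progenitors, was at 7.63 in ES cells and, among EBs, 7.07 untreated, 8.36 with RA and 7.91 with bexarotene. Between ES cells and untreated EBs its log2 difference was -0.56, within the threshold, and -0.63, past it, after quantile normalization. Relative to untreated EBs it had the largest positive difference of any member with either ligand, 2.45-fold with RA and 1.79-fold with bexarotene, and the log2 difference between bexarotene and RA was -0.45, the lowest of all members. Between the ligands 0 of 4 Id genes were past 1.5-fold, beside 0.507% of all genes. With each ligand neural genes moved in the direction of Id4: 4 of 5 neural markers were past 1.5-fold higher with RA and 4 of 5 with bexarotene, beside 2.11% and 1.52% of all genes. Between ES cells and untreated EBs they did not, with 3 of 5 higher and 0 lower where Id4 had a negative difference. The mean log2 signals of the neural markers were 6.63 in ES cells and, among EBs, 7.28 untreated, 9.20 with RA and 8.76 with bexarotene. The part of neural cells in the signal of Id4 and Id2 was not tested.

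Markers of other cell types also differed between these arrays. Over all genes 4.39% were past 1.5-fold with RA and 3.72% with bexarotene. Of 5 markers of anterior and definitive endoderm, 4 were past 1.5-fold lower with RA and 4 with bexarotene, and their mean log2 signal was 8.94 without ligand, 7.11 with RA and 7.00 with bexarotene. Of 6 markers of primitive streak and mesoderm, 2 were lower with RA, and 4 were lower and 1 higher with bexarotene, with means of 7.32, 6.71 and 6.86. The mesoderm marker T (brachyury) was also listed but had no probe set with a single gene symbol, so it is not counted. Of 6 fibroblast markers, 3 were lower with RA and 2 with bexarotene, with means of 7.46, 6.76 and 6.72. Visceral endoderm had 0 of 6 markers past 1.5-fold with either ligand, with means of 8.62, 8.90 and 8.73. Of the cardiac and endothelial markers, 1 of 4 and 1 of 3 were lower with each ligand. In each of these lists 0 markers were at or below the lower quartile on all 4 arrays. The fibroblast marker Lum, counted as lower with each ligand, was so on 3 arrays. Lum, Mixl1 and Myh6 were below the median on all 4, and Mixl1 is counted as lower with bexarotene. The part of these cell types in the levels of Bmp2, Bmp5, Bmp7, Tgfb2 and the BMP antagonists was not tested.

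A further 55 genes of the pathways, taken from a list of textbook roles, were counted in the same way. Between untreated EBs and ES cells 23 were past 1.5-fold (12 higher, 11 lower), with RA 7, with bexarotene 5 and between the ligands 0. These are 41.8%, 12.7%, 9.09% and 0%, beside 19.8%, 4.39%, 3.72% and 0.507% of all genes. The median log2 differences of the 55 genes were -0.07, 0.01, 0.02 and -0.03. With RA, 4 were lower (Cer1, Foxh1, Ltbp1 and Cfc1) and 3 higher (Tdgf1, Mstn and Pcsk6), and with bexarotene Cer1, Foxh1, Ltbp1 and Cfc1 were lower and Sostdc1 was higher. Of these, Cer1 and Foxh1 were past 2-fold between EB arrays, and the others are named after their values were seen. Mstn, which encodes the muscle growth inhibitor myostatin, was at or below the lower quartile on 3 of 4 arrays, with signals of 4.45, 4.64, 5.25 and 4.89 in ES cells, untreated EBs, RA and bexarotene, and it was no longer past 1.5-fold with RA under loess (0.56) or a floor at the lower quartile (0.07). Sostdc1, a BMP and Wnt antagonist, was at or below the lower quartile on 2 arrays, with signals of 5.06, 5.11, 5.60 and 5.74, and was not past 1.5-fold with bexarotene under quantile normalization (0.58), loess (0.57) or the floor (0.56). Both are left out when dim probe sets are. Cer1, a secreted antagonist of Nodal and BMPs, was at 5.48 in ES cells and, among EBs, 9.82 untreated, 5.78 with RA and 5.84 with bexarotene, and it also stands among the endoderm markers above. Foxh1, the DNA-binding partner of Smad2 in Nodal signalling, was at 9.12, 8.68, 7.82 and 7.50, 1.81-fold lower with RA and 2.25-fold lower with bexarotene than in untreated EBs. Ltbp1, which holds latent TGF-β in the matrix, had log2 differences of -0.99 and -0.93. Tdgf1 and Pcsk6, the coreceptor and a convertase of Nodal, were highest in ES cells, at 12.17 and 10.21, and had log2 differences from untreated EBs of 0.74 and 0.60 with RA and of 0.45 and 0.44 with bexarotene.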

How the data were processed

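RNA of 4 cultures was profiled with 1 Affymetrix array each. The authors deposited log2 signal per probe set, background-corrected, normalized and summarized in Affymetrix Expression Console. The article names RMA for this step, whereas the submitters' processing notes name GCRMA. Of 35556 probe sets, 21789 have 1 gene symbol in the platform annotation and were used, and each of the 48 members has 1. A gene was called if any probe set of it passed 1.5-fold and no other passed it in the opposite direction, and its value is that of the probe set with the highest mean. Robust SDs were taken in 20 bins of signal. Without replicates no test was possible, and the number of arrays limits the precision. The members, the other pathway genes, the markers, the motifs and the rule for named genes (all members, and other pathway genes past 2-fold between EB arrays) were chosen with earlier results of these data known. Motifs were searched in the 250 bases before each RefSeq start. Alternatives were a 2-fold threshold, quantile normalization, loess (span 0.3), a floor at the 25th percentile, leaving out probe sets below the median of both arrays, and other uses of several probe sets per gene. The steps were tested on simulated data with shifts larger than 1.5-fold and noise below the largest spread between these arrays. That simulation does not bear on calls near the threshold. Python 3.11.15, pandas 2.3.3, numpy 2.4.6, statsmodels 0.14.6 and matplotlib 3.10.9 were used.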

Additional observations from a re-analysis of the deposited data

Results flagged for a closer look

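Bmp4 was the member for which the ligand arrays lay on opposite sides of the untreated array, each by more than the spread at that signal. The log2 difference from untreated EBs was -0.34 with RA (spread 0.133) and 0.578 with bexarotene (spread 0.133), and that between bexarotene and RA was 0.91. With 1 array per condition the difference between the effects was not tested.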

How the results depend on the processing

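The 59 differences of members past 1.5-fold kept their direction under quantile normalization and loess, with shifts of at most 0.0931 that were under the spread between the compared arrays. Shifts of this size cannot reverse a difference past 0.585, and the deposited values were already normalized, so the kept direction is no support for these differences. The other settings could not bear on these values: each member has 1 probe set, none of these signals lay below the 25th percentile, and leaving out dim probe sets removes a value without altering it. Calls near the threshold changed: under both quantile normalization and loess, Bmp4 was gained with bexarotene against untreated EBs, Bmp5 (0.589 and 0.586) was gained between the ligands, and Tgfbr3 was lost with RA. Between untreated EBs and ES cells Id4 was gained under quantile normalization and Grem1 (0.59) under loess. Without dim probe sets Lefty1 and Lefty2 were left out with RA, Lefty1 and Bmpr1b with bexarotene, and Lefty2 between untreated EBs and ES cells, where 5 of 6 lower members remained. Of the other pathway genes, Mstn was lost with RA under loess and the floor and Sostdc1 with bexarotene under quantile normalization, loess and the floor, and both were left out as dim. Between untreated EBs and ES cells Inhbe was lost and Msx1 gained under loess, and Inhbe was left out as dim. At a threshold of 2-fold, 5 members were past it with RA (1 higher, 4 lower), 2 with bexarotene (0 higher, 2 lower) and 0 between the ligands, beside 1.47%, 1.35% and 0.0301% of all genes, and 15, 1 and 2 of the other pathway genes were past it for differentiation, RA and bexarotene. Between untreated EBs and ES cells 23 members were past 2-fold, beside 9.42% of all genes. No paired analysis was possible because each condition has 1 array.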

Other observations

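Several members are neighbours in the genome, by the RefSeq order of protein-coding genes. Smad3 and Smad6 are adjacent, with log2 differences between untreated EBs and ES cells of 2.07 and 0.33. Acvrl1 and Acvr1b are adjacent, with -0.26 and -0.06, and Acvr1c and Acvr1 are adjacent, with 0.09 and 1.18. Lefty2 and Lefty1 have 1 gene between them, with -1.14 and -1.88, and Smad7 and Smad2 have 2, with -1.83 and 0.36. In 3 of these 5 pairs, Smad3 with Smad6, Acvr1c with Acvr1 and Smad7 with Smad2, 1 gene was past 1.5-fold and its neighbour was not. Of all 48 members 60.4% were past 1.5-fold in this comparison, so such unlike pairs are common among members. Whether neighbours differ from other pairs was not tested.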
